A study of Mus musculus with 10 samples.

Results

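The genes described here encode the proteins of the cytosolic ribosome, and their RNA was measured in the mouse left atrium after pressure overload. They were taken by name: every row of the count tables called Rpl or Rps with a number and at most 1 letter a, x or l, together with Rplp0, Rplp1, Rplp2 and Rpsa. This gave 82 of 48397 gene rows, 50 for the large (60S) and 32 for the small (40S) subunit, and left out 274 pseudogene rows (names with -ps), 10 kinase rows named Rps6k and 10 other names such as Rps3a1 and Rpl22l1. Of the 82, Rpl6l and Rps4l are themselves typed as processed pseudogenes in the GENCODE M21 annotation and were kept, since the rule goes by name. The samples were 5 sham and 5 TAC libraries of bulk RNA-seq from wild-type mice operated on at 2 months of age and sampled 2 weeks later. TAC, transverse aortic constriction, narrows the aorta and raises the pressure against which the heart pumps, and sham mice had the surgery without the constriction. The series' design text gives C57BL/6J males, left appendage tissue and a TruSeq library kit; the samples' own labels give left atrium and an amplifying low-input kit (Trio, Nugen). Whether 1 mouse gave 1 library is not stated, so the p-values speak only to the spread among these libraries, which may be technical in part.

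The cytosolic ribosome is built from ribosomal RNA and a large set of proteins, most of them present in a single copy per particle, so the genes for these proteins are usually expressed in balance. Many of their mRNAs begin with a C followed by an unbroken run of pyrimidines, the terminal oligopyrimidine or TOP tract, through which mTOR and the RNA-binding protein LARP1 control their translation. A few proteins have a paralogue of restricted expression, among them Rpl3l, which takes the place of Rpl3 in ribosomes of heart and skeletal muscle. In the heart, growth of cardiomyocytes under load is known to come with higher ribosome production.

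The promoter windows of 9 of these genes are shown because they belong to genes the results turn on, or carry the longest pyrimidine runs around the start (Rpl7a and Rpl27a). Each window runs 5′ to 3′ on the gene's strand, from 15 bases before the annotated start to the first 15 transcribed bases, as RefSeq gives it on GRCm38.p6. Capitals mark the longest unbroken run of C and T, and genes with several annotated starts are shown at 1 of them.
Rpl7a, chr2:26910792-26910821 (+): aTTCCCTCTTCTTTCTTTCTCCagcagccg
Rpl27a, chr7:109519180-109519209 (+): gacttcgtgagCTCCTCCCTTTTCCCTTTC
Rpl13a, chr7:45128731-45128760 (-): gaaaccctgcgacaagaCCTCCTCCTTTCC
Rps6, chr4:86857353-86857382 (-): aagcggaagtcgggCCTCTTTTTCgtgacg
Rps27, chr3:90213634-90213663 (-): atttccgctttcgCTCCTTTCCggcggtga
Rps27l, chr9:66946071-66946100 (+): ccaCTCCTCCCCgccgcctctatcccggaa
Rpl39, chrX:37085208-37085237 (-): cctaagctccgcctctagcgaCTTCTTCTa
Rpl41, chr10:128549154-128549183 (-): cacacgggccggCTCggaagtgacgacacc
Rpl3l, chr17:24727811-24727840 (+): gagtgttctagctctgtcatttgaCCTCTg
An entry was found for 60 of the 82 genes. A run of 8 or more pyrimidines lay in at least 1 window of 26 of these 60 genes (43.3%), against 13.9% of 27025 mouse genes. The letters CTTTC, read on the gene's strand and allowed to overlap such a run, were in 17 of the 60 (28.3%), against 4.76% of all genes. In the comparison of TAC with sham, 4 were higher and 1 lower of 26 with a run (median log2 fold change 0.05), and 5 higher and 1 lower of 31 tested genes without one (median 0.07). A match of letters is a description of the window and not evidence of a TOP mRNA.

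The libraries held 17117306 to 43956384 counts over gene rows, and 2 sham libraries were shallower than the rest. Atrial markers summed to 28830 ± 1166 (SD, n = 5) CPM (counts in each 1e6 of a library's TMM-scaled total) in sham libraries and ventricular markers to 62.1 ± 90.4, with sham library 5 at 220.8 and the other 4 at most at 48.8; in TAC libraries they summed to 19610 ± 1719 and 7.17 ± 3.59. The 8 cardiomyocyte markers were all lower in TAC, their sum going from 68930 ± 4538 to 31230 ± 4196 CPM, and the 6 macrophage and 6 cell-cycle markers were all higher, their sums going from 167 to 450 and from 13.4 to 306 CPM. The fibroblast marker sum also went up (2140 to 4671 CPM), with 4 of 7 markers higher and 1 lower. Sums rose too for erythroid cells (223 to 895 CPM, 5 of 5 markers higher) and neutrophils (1.51 to 7.53 CPM). They fell for adipocytes (22.8 to 2.48 CPM) and Schwann cells (9.03 to 3.26 CPM). Of the 5 atrial markers 3 were lower and 1 higher, and of 2 tested ventricular markers 1 was lower and 1 higher. The part of these cell types in the results below was not tested. In bulk tissue, fewer cells of a type and less RNA per cell cannot be told apart. Mitochondrially encoded genes took 16.3% ± 1.42 of the counts in sham and 10.99% ± 2.10 in TAC libraries.

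With TMM scaling, the ribosomal protein genes as a family kept close to their sham level after TAC. The largest change was in the muscle paralogue Rpl3l, which fell 5.6-fold. Of the 82 genes, 78 had enough counts to be tested. In edgeR's quasi-likelihood test 11 rose (Rpl41, Rpl13a, Rpl39, Rpl34, Rps27l, Rps12, Rpl32, Rps27a, Rps7, Rpl10a and Rpl12), 3 fell (Rpl3l, Rpl30 and Rpl28) and 64 did not pass an adjusted p of 0.05. That is 17.95% of these genes, beside 56.8% of all 15175 genes tested, of which 28.9% were higher and 27.9% lower. Before adjustment 20 of the 78 had a p under 0.05.

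The spread of the changes was narrow. The median log2 fold change was 0.06 for the 78 genes and 0.01 for all genes, and the median size without regard to sign was 0.13 and 0.43. Of the 78 genes, 60 (76.9%) lay within 0.25 of 0 on the log2 scale, where 32.2% of all genes lay. Rpl3l alone among them changed by 1 or more, as 20.6% of all genes did. In 4 of them the CPM of all TAC libraries lay to 1 side of all sham libraries (Rpl3l, Rpl41, Rpl13a and Rps27l), as in 41.7% of all genes. The genes were well counted: 74 had a median of at least 1000 counts per library, and their standard errors ran from 0.07 to 0.40 with a median of 0.10.

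**Figure D1:**
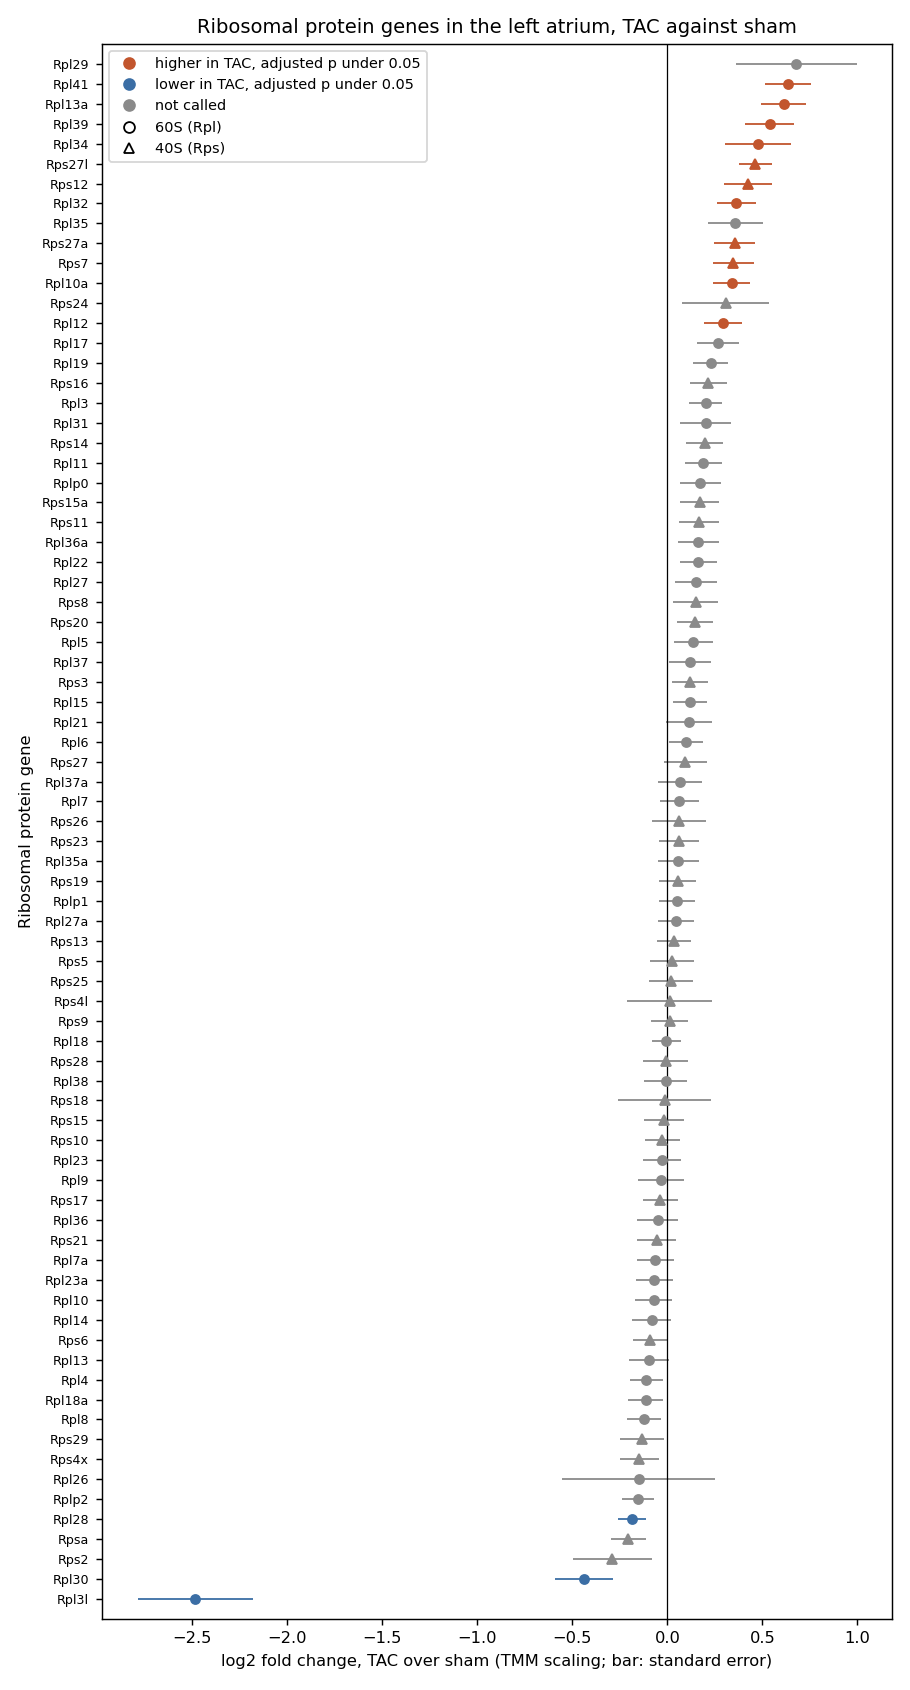
Log2 fold change of each of the 78 tested ribosomal protein genes (x axis, TAC over sham, with its standard error); circles are 60S and triangles 40S genes, and colour gives the call. Of the 78 points 60 lie within 0.25 of 0, with Rpl3l apart at -2.49 and Rpl41 the highest called gene at 0.63.

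The level of the family against sham, and the number of called genes in it, depended on the scaling. These values use TMM, which sets the bulk of genes to no change. When libraries were scaled by their size alone, the median of all genes moved up by 0.36 on the log2 scale, and 68 of the 78 were then higher and 1, Rpl3l, lower, where 51.0% of all genes were higher and 12.7% lower. Relative to the median of all genes, the family's median was 0.05 higher under either scaling. As a plain share of the counts over gene rows, the 82 genes took 1.30%, 1.37%, 1.19%, 1.17% and 1.30% in the 5 sham libraries and 1.63%, 1.96%, 1.82%, 1.56% and 1.48% in the 5 TAC libraries. All TAC shares were above all sham shares, with means of 1.26% ± 0.085 and 1.69% ± 0.196 (SD, n = 5). Without mitochondrially encoded genes in the total the means were 1.51% and 1.90%. With TMM the same genes summed to 14350 ± 1144 CPM in sham and 14930 ± 1882 CPM in TAC libraries, and the groups overlapped.

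The genes moved together from library to library. TAC library 2 held the highest TAC value for 59 of the 78 genes and TAC library 5 the lowest for 68, while sham library 5 held the highest sham value for 67. The same counts over all genes were not made, so a trait of the family and one of the whole library cannot be told apart here. The median of the 78 log2 levels, set against the mean of the sham libraries, was -0.06, 0.07, -0.06, -0.10 and 0.16 in sham libraries 1 to 5 and 0.14, 0.29, 0.19, -0.07 and -0.21 in TAC libraries 1 to 5. TAC libraries 2 and 3 lay above the sham range, TAC libraries 1 and 4 within it and TAC library 5 below it. TAC library 2 had the highest fibroblast marker sum of the 10 libraries (7459 CPM, other TAC libraries 3124 to 5249). Its macrophage sum was also the highest (606 CPM). TAC library 3 had the highest erythroid sum (2547 CPM, the other 9 libraries at most 574), and TAC library 5 the highest cell-cycle sum (449 CPM). Sham library 5 had the highest cardiomyocyte (76280 CPM), atrial (29860 CPM), ventricular (220.8 CPM) and Schwann cell (11.26 CPM) sums. The part of these cell types in the levels of the 78 genes was not tested. Without TAC library 5, 21 genes were higher and 1 lower. Without the 2 shallow sham libraries 6 were higher and 2 lower, and 8 of the 14 calls were kept.

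**Figure D2:**
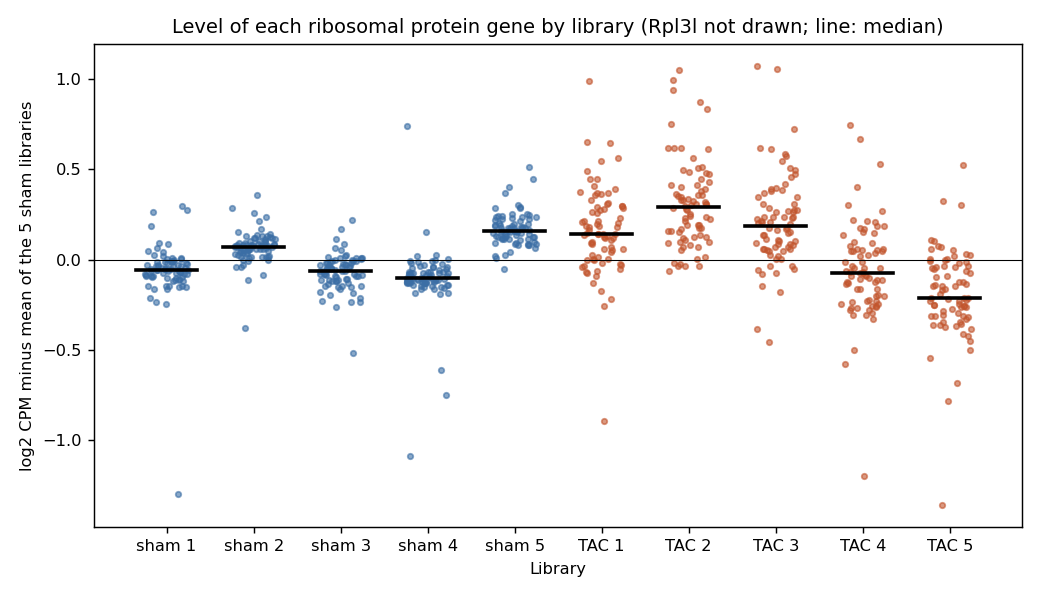
Level of each gene in each library (points, log2 CPM minus its mean over the 5 sham libraries) with the median of the 78 tested genes as a line; Rpl3l is in the median but not drawn. The medians run from -0.10 to 0.16 in the sham and from -0.21 to 0.29 in the TAC libraries, and the points of a library move together.

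The proportion of the 2 subunits differed by less than the spread between libraries. Of 46 tested 60S genes 7 rose and 3 fell in edgeR's test, and DESeq2 called 12 higher and 3 lower. Of 32 40S genes 4 rose and 0 fell in edgeR's test, with 1 lower at an unadjusted p under 0.05. DESeq2 called 4 of the 40S genes higher and 1, Rpsa, lower, beside 29.9% higher and 29% lower among all genes. The ratio of summed 60S to summed 40S CPM was 1.28 ± 0.033 in sham and 1.29 ± 0.019 in TAC libraries, with overlapping groups.

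Rpl3l, the paralogue of Rpl3 made in heart and skeletal muscle (chr17:24727820-24736143, plus strand, in GENCODE M21 on GRCm38, as for the genes below), was the gene with the largest change. It measured 17.6, 23.8, 22.1, 28.5 and 35.8 CPM in sham libraries 1 to 5 and 8.33, 2.81, 4.56, 3.02 and 4.04 CPM in TAC libraries 1 to 5. Every TAC library was below every sham library. The log2 fold change was -2.49 (SE 0.30, adjusted p = 5.01e-05), and the call held in all 25 other fits, at -2.81 to -2.13. Of all genes tested 1.0% had a lower value. The 8 cardiomyocyte markers also fell, from -0.52 for Actc1, the cardiac actin, to -2.43 for Pln, the inhibitor of the sarcoplasmic calcium pump, with a median of -1.36; the part of this in the fall of Rpl3l was not tested. Rpl3l shares no 50-base stretch with another annotated gene, and it has no copy row.

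Rpl3, which holds the same place at the peptidyl transferase centre in most tissues, measured 221, 196, 238, 194 and 213 CPM in sham and 280, 236, 247, 235 and 222 CPM in TAC libraries. The groups overlapped, and its log2 fold change of 0.20 (SE 0.09) did not pass (adjusted p = 0.067, from 9.7e-05 to 0.20 over the other fits). It was called higher by DESeq2, limma voom and upper-quartile scaling, under scaling by library size alone, without sham library 3 or TAC library 5, and with its copies added (0.22, adjusted p = 0.0215). Its copy row Rpl3-ps1, which shares 94.75% of its 31-base stretches, ran from 2.43 to 38.1 CPM. With that row added, sham libraries were at 225.5 to 241.4 and TAC libraries at 251.6 to 298.0 CPM, so that the groups no longer overlapped. By the counts of the genes' own rows, Rpl3l made up made up 12.2 ± 3.68 counts per 100 counts of Rpl3 in sham and 1.82 ± 0.707 in TAC libraries (SD, n = 5), with no overlap. The log2 ratio differed by -2.76, with p = 0.00794 in an exact two-sided permutation test over the libraries, the smallest p that 5 against 5 allow, and 0.028 after adjustment over 7 pairs. Leaving out TAC library 1, 2 or 4 gave -2.96, -2.63 and -2.66, each with the same exact permutation p of 0.00794. The adjusted p was 0.056 in each, because the p of another pair, Rpl22l1 against Rpl22, was larger there (0.0238), which changed the adjustment over pairs.

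The highest called rise was in Rpl41, the gene for the smallest ribosomal protein, a short basic peptide (chr10:128548114-128549305, minus strand). Its level was 185, 187, 188, 190 and 207 CPM in sham and 300, 381, 316, 253 and 236 CPM in TAC libraries. The sham values lay close together and all TAC values above them, and the log2 fold change was 0.63 (SE 0.12, adjusted p = 0.00087). Its promoter window, shown above, has no pyrimidine run longer than 3 in that stretch. Rpl29, not called in edgeR's test, averaged 45.05 ± 18.5 CPM per kilobase of exon in sham and 72.29 ± 19.27 in TAC libraries. Over fits with 1 library left out, its log2 fold change ran from 0.467 to 0.876. DESeq2, scaling by library size alone and the fit without TAC library 5 called it higher. It was not called with upper-quartile scaling, length and GC offsets or the replicate block, nor without the 2 shallow sham libraries.

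Rpl39, like Rpl41 a very short protein, lines the peptide exit tunnel. Rpl39 measured 38.5, 42.6, 36.2, 40.7 and 50.6 CPM in sham and 61.1, 73.9, 63.4, 59.8 and 44.7 CPM in TAC libraries. TAC library 5 alone lay within the sham range. It rose by 0.54 (SE 0.13, adjusted p = 0.0036). Rpl13a, known for its separate role in silencing inflammatory mRNAs, was counted at only 6.33, 6.65, 6.17, 5.67 and 5.93 CPM in sham and 8.97, 11.3, 9.21, 9.75 and 7.68 CPM in TAC libraries. All TAC values exceeded all sham values (log2 fold change 0.61, SE 0.12, adjusted p = 0.00089). Its copy rows held 75.6 counts per 100 of its own. With the copy row Gm11478 added, sham libraries were at 9.87 to 12.2 and TAC libraries at 11.77 to 19.58 CPM, so the groups overlapped. With all copies added, Rpl13a rose by 0.42 in edgeR's test (adjusted p = 0.0144). However, 35.4% of its exonic bases overlap other annotated genes on its strand and 41.1% of its 50-base stretches occur in other genes, and reads from there may not have been assigned to it.

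Rpl34 measured 54.8, 64.0, 56.9, 53.8 and 64.8 CPM in sham and 72.2, 90.2, 122, 66.8 and 58.2 CPM in TAC libraries, with TAC library 3 far above the rest. It rose by 0.48 (SE 0.18, adjusted p = 0.036), but 7 of 25 other fits lost the call. Leaving out TAC library 3 gave 0.29 (adjusted p = 0.066), and leaving out sham library 1, 3 or 4 or TAC library 2 gave 0.44 to 0.46 (adjusted p up to 0.075). The remaining called 60S genes rose less: Rpl32 by 0.36, Rpl10a by 0.34 and Rpl12, a protein of the stalk base, by 0.29. Of these, the call of Rpl32 held in all 25 other fits, that of Rpl10a was lost without the 2 shallow sham libraries, and that of Rpl12 was lost in 8. Without sham library 1, 3 or 4 or TAC library 2 or 3, Rpl12 was at 0.25 to 0.28 (adjusted p up to 0.069).

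Rpl30 and Rpl28 were lower, with less support. Rpl30, which binds its own transcript in yeast, measured 87.2, 97.3, 98.9, 105 and 134 CPM in sham and 55.7, 102, 79.1, 69.2 and 79.7 CPM in TAC libraries. TAC library 2 lay within the sham range and the other 4 below it. The log2 fold change was -0.44 (SE 0.16, adjusted p = 0.030), and 6 of 25 other fits lost the call. Without sham library 5 or TAC library 1, 3, 4 or 5 it was at -0.45 to -0.32 (adjusted p up to 0.079), and scaling by library size alone gave -0.06. Rpl28 measured 165, 165, 169, 169 and 180 CPM in sham and 146, 165, 160, 141 and 133 CPM in TAC libraries, at -0.19 (SE 0.07, adjusted p = 0.0499). That call was lost in 18 of 25 other fits, among them those without 1 library other than TAC library 2 or 3 (-0.20 to -0.13), and scaling by library size alone turned the sign, to 0.18.

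**Figure D3:**
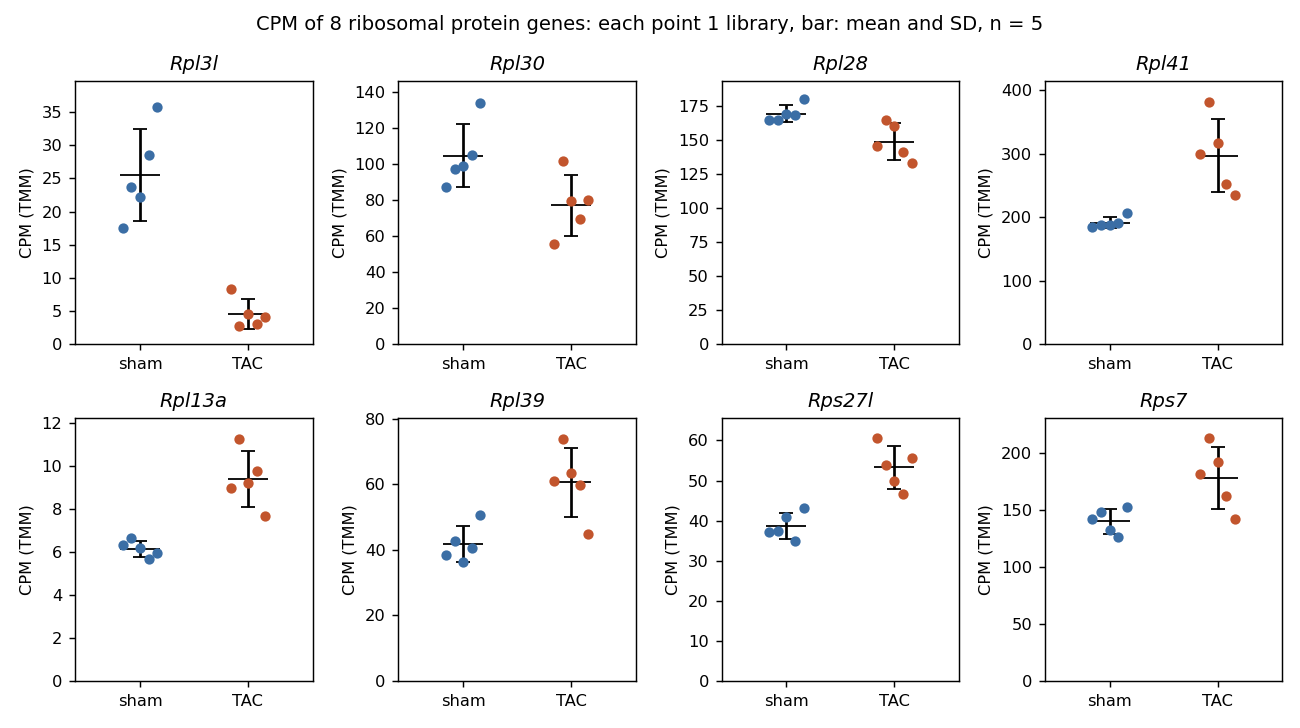
CPM of 8 called genes, 1 point per library, with the mean and SD of each group (n = 5) and axes starting at 0. The groups are separate for Rpl3l, Rpl41, Rpl13a and Rps27l and overlap or nearly touch for Rpl30, Rpl28, Rpl39 and Rps7.

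Genes of the structural groups of the 60S subunit mostly stayed near their sham level. The acidic stalk recruits elongation factors. Its base Rplp0 measured 645, 685, 680, 583 and 660 CPM in sham and 777, 863, 752, 692 and 587 CPM in TAC libraries (log2 fold change 0.17, SE 0.11, adjusted p = 0.19). TAC libraries 1 to 4 were above all sham libraries and TAC library 5 near the lowest of them. Of its partners, Rplp1 averaged 437 ± 44.2 and 453 ± 34.6 CPM, and Rplp2 203 ± 9.59 and 182 ± 18.5 CPM. None of the 3 passed in edgeR, DESeq2 or limma voom, and 0 had an unadjusted p under 0.05.

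Rpl5 and Rpl11 bind 5S RNA and, when ribosome assembly is disturbed, the p53 regulator MDM2. Rpl5 measured 119, 130, 115, 110 and 136 CPM in sham and 138, 158, 144, 118 and 112 CPM in TAC libraries, and Rpl11 127, 145, 127, 116 and 147 CPM in sham and 163, 168, 158, 131 and 135 CPM in TAC libraries. In both genes 3 TAC libraries were above all sham libraries and the other 2 within their range, and neither passed (log2 fold change 0.14 and 0.19, adjusted p = 0.28 and 0.11). Of 8 proteins around the tunnel exit 1 rose, Rpl39, and 0 fell in edgeR's test, with a median of 0.21; at an unadjusted p under 0.05, 4 were higher and 0 lower, and DESeq2 called 4 higher and 0 lower. Among all genes edgeR had 28.9% higher and 27.9% lower, and DESeq2 29.9% and 29%. Rpl35, Rpl17 and Rpl19 were just short of the threshold, at 0.36 (adjusted p = 0.055), 0.27 (0.057) and 0.23 (0.057).

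Among 40S genes the clearest change was in Rps27l, a paralogue of Rps27 known as a target of p53 (chr9:66946086-66949516, plus strand). It measured 37.1, 37.5, 41.0, 34.9 and 43.0 CPM in sham and 60.7, 54.0, 49.9, 46.5 and 55.5 CPM in TAC libraries. All TAC values were above all sham values, a rise by 0.46 on the log2 scale (SE 0.09, adjusted p = 0.00075). Rps27 itself, with 186, 207, 190, 181 and 222 CPM in sham and 223, 238, 237, 190 and 164 CPM in TAC libraries, overlapped widely (0.10, SE 0.11, adjusted p = 0.49). Counts of Rps27l per 100 of Rps27 went from 19.7 ± 1.28 to 25.8 ± 4.99 (log2 difference 0.38, exact two-sided permutation p = 0.0159, 0.037 after adjustment over 7 pairs). TAC library 3, at 21.04, was inside the sham range of 18.1 to 21.6, and TAC library 5 was highest at 33.8. Leaving out 1 library other than sham 3, TAC 3 or TAC 5 gave a difference of 0.35 to 0.42 with an adjusted p of 0.056 to 0.093.

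Rps12, Rps27a and Rps7 rose by 0.42, 0.35 and 0.35 (SE 0.13, 0.11 and 0.11). Rps27a, which is made as a fusion with ubiquitin, went from 124 ± 13.5 to 159 ± 22.3 CPM, Rps12 from 217 ± 20.8 to 291 ± 53.3 CPM, and Rps7 from 140 ± 11.1 to 178 ± 27.4 CPM (SD, n = 5). The call of Rps7 held in all 25 other fits, and those of Rps12 and Rps27a were each lost in 1, without the 2 shallow sham libraries.

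Rps6, the substrate of the S6 kinases, measured 122, 131, 125, 123 and 146 CPM in sham and 125, 134, 137, 108 and 104 CPM in TAC libraries (log2 fold change -0.09, adjusted p = 0.42). Rps19, the gene most often mutated in Diamond-Blackfan anaemia, measured 112, 115, 107, 95.0 and 114 CPM in sham and 124, 124, 120, 90.6 and 106 CPM in TAC libraries (0.06, adjusted p = 0.65). In both the groups overlapped. Rpsa, also known as the laminin receptor, measured 480, 488, 468, 453 and 521 CPM in sham and 460, 461, 424, 391 and 352 CPM in TAC libraries. Its values overlapped in TAC libraries 1 and 2, and -0.21 (SE 0.09) missed the threshold (adjusted p = 0.078). Of 5 proteins at the mRNA channel, Rps2, Rps3, Rpsa, Rps26 and Rps28, 0 passed in edgeR; Rpsa was lower at an unadjusted p under 0.05 and in DESeq2. Of 10 genes mutated in Diamond-Blackfan anaemia 1, Rps7, rose and 0 fell, with the same counts at an unadjusted p under 0.05 and in DESeq2, beside 28.9% higher and 27.9% lower among all genes in edgeR's test.

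Of the other paralogue pairs, Rpl22l1 against Rpl22, which is known to repress it, also differed between the groups. Rpl22l1 counts per 100 of Rpl22 were 24.04, 15.9, 29.1, 17.3 and 18.7 in sham and 15.2, 14.7, 15.2, 14.1 and 13.4 in TAC libraries. All TAC values were below all sham values, though sham libraries 2 and 4 were close, and the log2 ratio differed by -0.50 (exact two-sided permutation p = 0.00794, adjusted p = 0.028). Without TAC library 1, 2, 3 or 4 the difference was -0.51 to -0.48 (adjusted p = 0.056). As a level, Rpl22l1 was at 27.5 ± 4.17 CPM in sham and 21.9 ± 3.06 CPM in TAC libraries and fell by 0.33 on the log2 scale (adjusted p = 0.039), but was at 0.03 after scaling by library size alone. Without sham library 1, 3 or 5 or TAC library 4 or 5 its call was lost (-0.32 to -0.25, adjusted p up to 0.10). Rpl22 was at 134 ± 16.3 and 150 ± 14.1 CPM and did not pass (adjusted p = 0.18).

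The ratios of 4 further pairs did not pass in the same exact permutation test. Rpl36al per 100 Rpl36a counts averaged 58.2 ± 3.28 in sham and 55.0 ± 6.03 in TAC libraries (adjusted p = 0.40), and Rpl7l1 per 100 Rpl7 counts 11.97 ± 1.38 and 10.1 ± 1.79 (adjusted p = 0.18, and 0.042 at a log2 difference of -0.36 without TAC library 5). Rps4l, a transcribed processed pseudogene of the X-linked Rps4x by its annotation, stood at 2.26 ± 0.472 and 2.44 ± 0.579 per 100 (adjusted p = 0.70). Rpl39l, a paralogue best known from testis, had 50 counts in all and gave at most 0.823 per 100 counts of Rpl39 (adjusted p = 0.93). Rpl10l, also of testis, had 0 counts in every library.

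**Figure D4:**
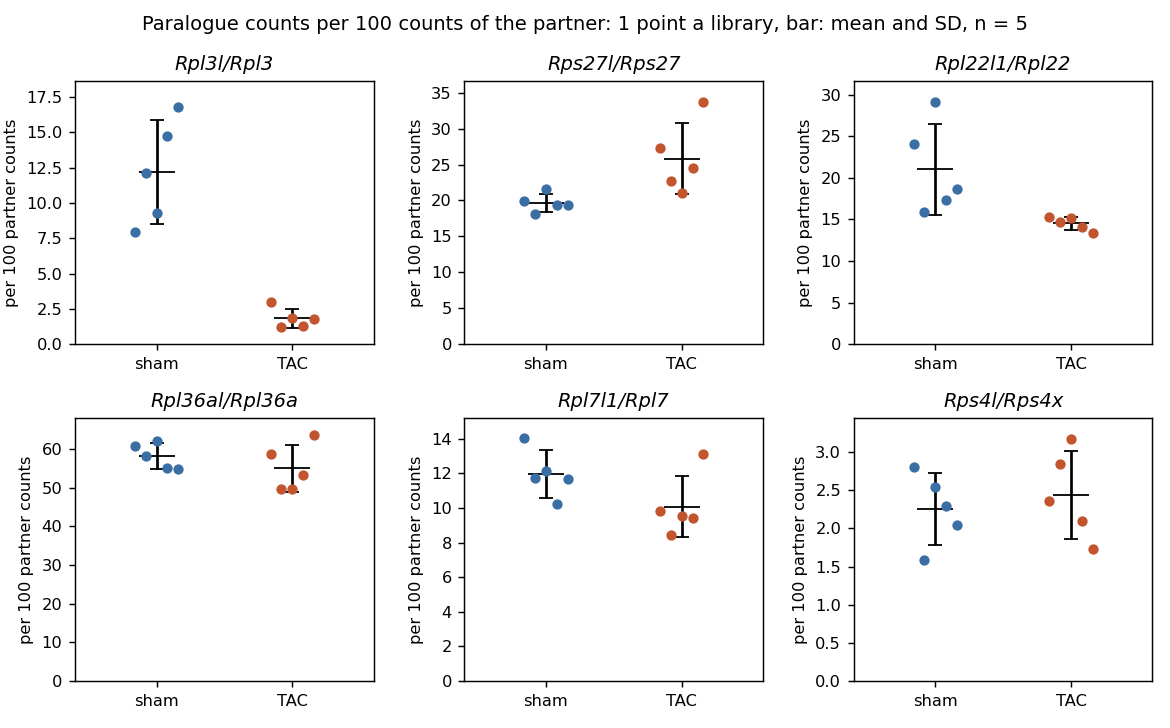
Counts of 6 paralogues per 100 counts of the partner gene, 1 point per library, with mean and SD (n = 5) and axes starting at 0. The groups are apart for Rpl3l/Rpl3 (12.2 and 1.82) and Rpl22l1/Rpl22 (means 21 and 14.6), nearly so for Rps27l/Rps27, and mixed for the others.

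Ribosomal protein genes have many processed copies in the genome, and 75 of the 82 had at least 1 annotated copy row, 575 rows with 133076 counts in all. In the median gene 35.8% of the 50-base stretches occurred in another annotated gene, from 0% in Rpl3l to 95.1%. Rpl24, a 60S gene, had 53 counts over all 10 libraries and its copy rows 1199, and 46.99% of its exonic bases overlap another annotated gene, Gm28037, on its strand; the part of either in its low count was not tested. It did not enter the test, as were Rpl6l (93 counts), Rpl39l and Rpl10l.

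Some genes switched between libraries together with a copy row; these were chosen after their values were seen. Rpl26 stood at 43.0, 39.9 and 35.6 CPM in sham library 4 and TAC libraries 4 and 5 and at 104 to 129 CPM in the other 7. Its copy row Gm15772 stood at 71.0, 69.7 and 66.6 CPM in those 3 libraries and at 37.2 to 45.8 CPM in the others. The ratio of the highest to the lowest library was 3.62 for Rpl26 and 1.71 for the sum of both rows. In Rps24, the copy row Rps24-ps3 was at 5.85 CPM in TAC library 2, where Rps24 was highest at 280.5 CPM, and at 52.2 CPM in TAC library 5, where Rps24 was lowest at 91.2 CPM. Summing them reduced the ratio from 3.08 to 2.00. The row Rps2-ps13 was at 25 to 30.5 CPM in sham libraries 3 and 4 and TAC libraries 1 and 3 and at 0.30 CPM or less in the other 6. For Rps2, adding it reduced the ratio of the highest to the lowest library from 2.29 to 2.00, and in TAC library 5 the gene was low with the copy row near 0, at 246.6 CPM for both together. Rpl26 and Rps2-ps13 switched in libraries of both groups, and Rps24-ps3 stood apart in TAC libraries 2 and 5 only; the cause was not tested. With all annotated copies added to their gene, 12 of 79 were higher and 2 lower, and 13 of the 14 calls were kept.

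**Figure D5:**
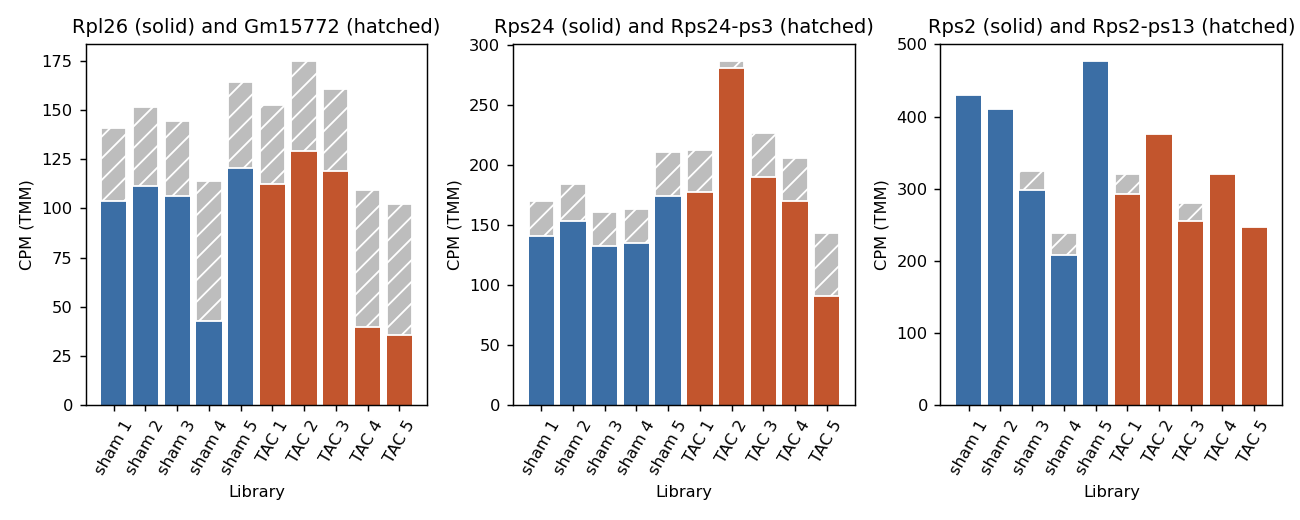
CPM of Rpl26, Rps24 and Rps2 by library (solid bars, blue sham, red TAC) with a copy row stacked on top (hatched). Where the solid bar of Rpl26 is low, at 35.6 to 43.0 CPM, the hatched Gm15772 is high, at 66.6 to 71.0 CPM; Rps2-ps13 appears in 4 libraries only.

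Per kilobase of exon, which takes gene length into account, the highest of the tested genes was Rplp1 at 876 ± 88.7 CPM per kilobase in sham and 907 ± 69.3 in TAC libraries. Rps15, of the 40S head, followed at 443 ± 33.9 and 438 ± 62.0, and Rplp0 came next at 392 ± 24.7 and 442.5 ± 62.0, within the spread of Rps15 in TAC. The lowest over all 10 libraries together were Rps4l, Rpl3l and Rpl13a. Rps4l stood at 9.72 ± 1.54 and 9.81 ± 3.34, Rpl3l at 15.6 ± 4.21 and 2.77 ± 1.36, and Rpl13a at 2.91 ± 0.177 and 4.43 ± 0.615. In sham libraries Rpl3l was thus above Rps4l, and above Rpl35a at 13.04 ± 1.61, and in TAC libraries it was below both. The order rests on the exon lengths of the annotation: 7 of the 10 highest were again among the 10 highest when the longest transcript set the length. Length does not correct for reads that match other genes as well. The share of 50-base stretches found in another annotated gene ran from 0% in Rpl3l to 95.1% in Rpl35. The copy rows of Rpl13a held 75.6 counts per 100 of its own, so its low level may be too low.

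Further proteins of the ribosome fall outside the naming rule. Rack1, the scaffold on the 40S head, was at 476 ± 34.8 CPM in sham and 575 ± 71.9 CPM in TAC libraries and rose by 0.27 (SE 0.10, adjusted p = 0.039), a call lost without sham library 1, 2, 3 or 4 or TAC library 2 or 3 (0.22 to 0.27). Fau, which encodes Rps30, was at 143 ± 9.03 and 165 ± 21.8 CPM and Rps3a1 at 263 ± 32.4 and 246 ± 29.8 CPM, and neither passed. Of the 10 such genes 1 rose, and 1, Rpl22l1, fell.

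Factors that load and drive ribosomes changed in both directions. Of 29 initiation factors 4 rose and 14 fell, with a median of -0.18. Pabpc1, the poly(A)-binding protein, went from 105 to 111 CPM in sham libraries to 191 to 263 CPM in TAC libraries and rose by 1.11 (SE 0.09, adjusted p = 2.85e-06). Eif1, which governs start-site choice, went from 348 to 448 CPM down to 214 to 280 CPM (-0.71, adjusted p = 0.00012). Eif1ax fell by 0.42, a call not kept under scaling by library size alone. Under that scaling 14 initiation factors were higher and 1 lower, where 51.0% of all genes were higher and 12.7% lower.

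Of 10 elongation factors 2 rose and 2 fell. Eef1a2, the muscle and neuron form of the factor that delivers tRNA, went from 859 to 1110 CPM in sham down to 467 to 608 CPM in TAC libraries (log2 fold change -0.94, SE 0.10, adjusted p = 2.04e-05). The widely expressed Eef1a1 was higher at 3392 against 2504 CPM and rose by 0.44 (adjusted p = 0.0021). Eef1d, a subunit of its exchange factor, fell by 0.59, and Eif5a2 rose by 1.09. Of 16 non-ribosomal genes known for TOP mRNAs 6 rose and 3 fell, with a median of -0.04; they include Pabpc1, Eef1a1 and Eef1d, and Hnrnpa1, an RNA-binding protein, which fell by 0.34 but was at 0.02 after scaling by library size alone.

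Of 39 tested ribosome assembly factors 5 rose and 11 fell, with a median of -0.04. Bop1, needed for the large subunit, went from 16.7 to 18.8 CPM up to 22.5 to 26.3 CPM, a rise by 0.53 (SE 0.07, adjusted p = 8.17e-05). Nolc1 and Gnl2, both nucleolar, fell by 0.49 and 0.48, calls not kept under scaling by library size alone, where 23 assembly factors were higher and 0 lower, again beside 51.0% and 12.7% of all genes. Of 14 genes of RNA polymerase I, which makes the ribosomal RNA precursor, 4 rose and 4 fell. Its largest subunit Polr1a fell from 46.7 to 57.1 CPM down to 26.9 to 32.6 CPM (-0.77, SE 0.08, adjusted p = 1.37e-05). Of the subunits of its promoter factor SL1, Taf1a fell by 0.84 and Taf1d rose by 1.25.

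Of 16 regulators in the MYC and mTOR pathways 2 rose and 7 fell. Mycn, a MYC family gene, rose from 0.863 to 1.47 CPM in sham to 2.09 to 4.43 CPM in TAC libraries (log2 fold change 1.39, SE 0.26, adjusted p = 0.00071), while Myc averaged 6.71 and 6.75 CPM. Max, the partner of MYC, fell by 0.85, and Tsc2 and Eif4ebp2, brakes on mTOR signalling and on cap-dependent initiation, fell by 0.55 and 0.66, the call of Tsc2 not kept under scaling by library size alone. Under that scaling 7 of the 16 were higher and 3 lower. Of the 10 Rps6k kinase genes 3 rose and 2 fell, and scaling by library size alone gave 8 and 2. Rps6ka5, known as MSK1, fell from 39.6 to 46.1 CPM down to 11.6 to 18.5 CPM (-1.60, SE 0.12, adjusted p = 2.05e-06), Rps6ka6 fell by 2.05, and Rps6ka4, known as MSK2, rose by 0.48. These lists stand beside a background of 28.9% higher and 27.9% lower (51.0% and 12.7% after scaling by library size alone), and cardiomyocyte markers fell across the same libraries; the part of this was not tested.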

How the data were processed

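Bulk RNA-seq of 5 sham and 5 TAC libraries (groups from the sample titles) was deposited as raw read counts per gene, 1 table per library. The authors used STAR and bcl2fastq with the mm10 build, per the submitters' processing notes; for counting, strand and annotation, the setting is not given in the sources used here. Rows that name no gene stayed out of library sizes. Of the counts over all rows, with and without a gene name, reads aligned to several places made up 15.8% in sham and 13.4% in TAC libraries. Ambiguous reads came to 4.31% and 5.79%. Reads from near-identical copies and from overlapping genes may therefore be missing from these genes.

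All rows passing filterByExpr were fitted together with edgeR 4.0.16 (R 4.3.3): TMM scaling, robust quasi-likelihood F test, Benjamini-Hochberg adjustment over all genes tested. CPM are TMM-scaled, and standard errors are the log2 fold change over the root of F. Paralogue ratios used counts plus 0.5, with an exact permutation test over 252 regroupings. Levels per kilobase used summed exon length from GENCODE M21, to which all 82 genes matched, and copy rows were annotated genes sharing at least 20% of their 31-base stretches with a gene. The fit was tested on simulated counts with far fewer changed genes than were called here, which does not bear on the choice of scaling. Alternatives, described in the closing section, were other scalings, filters and tools (DESeq2 1.42.0, limma 3.58.1 with voom), the replicate block, length and GC offsets, added pseudogene rows, a stricter threshold and left-out libraries. The addition of annotated copies, and the summed share without the shallow libraries, were chosen after seeing the data.

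Members and lists were chosen with earlier results of these data known. Values per library were to be given for paralogue pairs, Rplp0, Rplp1, Rplp2, Rpsa, Rpl5, Rpl11, Rps6, Rps19, the 5 largest called rises and falls and the 3 highest and lowest genes per length, and for up to 3 called genes of smallest p per pathway list with 1 of the rarer direction; pathway genes and uncalled paralogues are given here by range or mean. Rpl26, Rps24, Rps2, Rps26, Rpl24, Rpl29, Rpl35, Rpl17 and Rpl19 were named after their values were seen. So was Rpl34, which is also among the 5 largest called rises. RefSeq gave promoter windows for 60 genes. Every tested ribosomal protein gene had at least 102 counts in every library.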

Additional observations from a re-analysis of the deposited data

Results flagged for a closer look

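In 172 groups of 5 libraries (78 genes, the summed share and 7 ratios, in each group), 4 (2.33%) held a library far from the other 4, where chance flags about 1 group in 20. Rpl26 was at 43.0 CPM in sham library 4, the lowest of its group, where its copy row Gm15772 was high. Rpl28 and Rpl41 were highest in sham library 5, at 180.0 and 207 CPM, the library that held the highest sham value of 67 genes. Rps26, of the mRNA channel, was at 64.9 CPM in TAC library 5, below 101 to 112 CPM in the other 4 TAC libraries.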

How the results depend on the processing

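The scaling had the largest effect. Scaling by library size alone gave 68 ribosomal protein genes higher and 1 lower with a median of 0.419, 5 and 0 of the ribosomal genes outside the naming rule, 5 elongation factors higher, 14 initiation factors higher and 1 lower, 1 non-ribosomal TOP gene lower, 23 assembly factors higher and 0 lower, 7 RNA polymerase I genes higher and 2 lower, 7 regulators higher and 3 lower, and 8 Rps6k genes higher. With it 27 of the 29 ribosomal protein genes with a negative value turned positive, as all genes moved up by 0.36; among the genes named it turned Rpl10 (0.288), Rpl22l1 (0.027), Rpl7l1 (0.153), Rps4x (0.213), Rplp2 (0.203), Rpsa (0.152), Rps6 (0.270), Rpl28 (0.176), Rps15 (0.343), Hnrnpa1 (0.018), Rpl26 (0.198) and Rps2 (0.072). The number of ribosomal protein genes higher was 18 with upper-quartile scaling, 19 with length and GC offsets, 6 without the 2 shallow sham libraries and, at an adjusted p under 0.01, 5 with 1 lower. DESeq2 called 5 non-ribosomal TOP genes lower. Rps15 was at 0.032 with upper-quartile scaling, 0.001 without the filter and 0.077 with length and GC offsets, Rpl10 at 0.001 with those offsets, and Rps26 at -0.003 with limma voom. Without the 2 shallow sham libraries the log2 ratio differences were -2.932 for Rpl3l, -0.538 for Rpl22l1, 0.342 for Rps27l and 0.392 for Rpl39l. With 3 sham libraries none of these passed. Rpl3l and Rpl22l1 had the smallest p that 3 against 5 allow in the exact permutation test (0.0179, adjusted 0.0625), so it could not decide them. For Rps27l the exact p was 0.0893. Rps4l was at a log2 fold change of -0.013.

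Leaving out 1 library at a time gave 9 to 21 genes higher and 1 to 3 lower, the median running from 0.028 to 0.149. The ratio differences ran from -2.956 to -2.628 for Rpl3l, 0.274 to 0.444 for Rps27l, -0.585 to -0.369 for Rpl22l1, -0.818 to 0.314 for Rpl39l, -0.356 to -0.196 for Rpl7l1 and -0.016 to 0.221 for Rps4l. Genes near 0 changed sign: Rps15 (-0.057 to 0.053), Rps4l (-0.149 to 0.174), Rpl26 (-0.345 to 0.060), Rpl10 (-0.112 to 0.001) and Rplp1 (-0.009 to 0.099). The cause of these shifts was not tested. The replicate numbers did not pair the libraries, since same-numbered libraries correlated at -0.04 to 0.08 and 1 of 5 numbers matched best with itself. With the replicate block 9 genes were higher and 2 lower, Rps4l was at -0.045, and 11 of the 14 calls were kept. The other alternatives named under processing kept the counts of higher and lower ribosomal protein genes within 1.5 times, and those for the summed share kept its direction; DESeq2 called 12 of the 60S genes higher, against 7.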
